A study of Mus musculus with 16 samples.

Results

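To ask which liver genes separate mice on an intermittent diet from the heavy mice on freely fed diets, the 4 livers of the intermittent diet (INT, spelled ID in the labels) were compared with 4 livers of high body weight mice from the control (C) and medium-fat (MF) diets. These 8 arrays were taken from the 16 of the series by their diet and body weight class in the sample labels, and 14275 genes were tested. All mice were male C57BL/6J, were put on their diets at 9 weeks and were killed at 12 months of age. C mice ate AIN-93W without limit, and MF mice ate AIN-93W-MF, with 25% of its energy from fat, without limit. INT mice changed weekly between unlimited AIN-93W-MF and a 40% calorie restriction set from the intake of C mice, and they were killed in a week of AIN-93W-MF. Every mouse was fasted for 4 h, was given by gavage either the carrier carboxymethyl cellulose (mock) or 160 mg/kg of Wy-14,643 (Wy), a synthetic agonist of the nuclear receptor PPARα, and was fasted for a further 6 h before it was killed. The 4 INT arrays were 2 mice of high and 2 of low body weight within the INT diet, 1 mock and 1 Wy in each class. The 4 heavy arrays were 1 mock and 1 Wy mouse of high body weight from C and from MF. Each array was 1 mouse, and the labels give the class but not the weight.

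Several limits came with this choice of mice. The heavy mice were all of the high body weight class of their diets, so diet and body weight cannot be told apart in this comparison. Within the heavy mice, each combination of diet and treatment was 1 mouse. Both INT arrays of high body weight carried a second array code in the labels, whose meaning the labels do not state, while the other 14 arrays of the series shared 1 code. Whole liver was used throughout, so fewer cells of a type and less RNA per cell cannot be told apart.

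Livers of freely fed, aging mice that gain weight commonly store triglyceride in lipid droplets, a state called steatosis. Droplets are coated by perilipins and CIDE proteins, which govern how fat is stored, fused and released. Fatty liver often brings monocyte-derived macrophages, matrix remodeling and repair proteins such as annexins, and it can blunt the pulsatile growth hormone signal that keeps male-biased liver genes high and female-biased genes low. PPARα drives fatty acid oxidation during fasting. These points are background and were not measured here.

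The 8 livers read as liver tissue in both groups. The 9 tested hepatocyte markers had mean log2 levels of 12.93 to 12.98 in the INT and 12.88 to 12.94 in the heavy arrays, and 0 were called by limma (0 at an unadjusted p under 0.05). The median log2 value of an array was 7.07 to 7.21 across the series. As a root-mean-square log2 difference between arrays of the same treatment, INT and heavy arrays lay 0.283 to 0.405 apart (median 0.330, 8 pairs), and INT and light C and MF arrays 0.212 to 0.256 (median 0.231, 8 pairs). The 2 distances within INT were 0.240 and 0.272, and those within the heavy mice 0.250 and 0.290.

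Between INT and heavy livers, 590 genes (4.13% of those tested) were called, which means an adjusted p under 0.05 in limma with treatment as a term. Of these, 205 were higher in INT (1.44%) and 385 were lower (2.7%). At least 2-fold differences were found for 20 of the higher and 66 of the lower genes. An unadjusted p under 0.05 in limma was reached by 3215 of the 14275 genes. In 589 of the 590 genes the INT and heavy arrays did not overlap among the mock arrays nor among the Wy arrays, and for 448 genes all 8 arrays were apart. The count of 589 was nearly fixed by the call, which had treatment as a term. Arrays in random order would be apart within both treatments, in the same direction, for 5.56% of genes. Separation of all 8 arrays occurred in 1421 of all tested genes (9.95%), so it is common without a call. The count depended on single mice. It ranged from 136 without the low body weight INT mock mouse to 577 without the heavy C Wy mouse, with 173 without the INT high mock, 183 without the heavy MF mock, 200 without the heavy C mock and 294 without the INT low Wy mouse. Without both INT mice of high body weight, whose arrays carried the second code, 80 genes were called (28 higher, 52 lower). Against the heavy C mice alone 84 genes were called and against the heavy MF mice alone 592.

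Values below are log2 intensities. For each gene the mock array is given first and the Wy array second, and differences are INT minus heavy with the standard error (SE) of the fit. The deepest falls in INT included a gene of lipid droplets, plasma proteins of the acute phase, a female-biased P450 and genes known from lipid-laden macrophages. Others among them were of no shared kind.

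Cidea encodes a CIDE protein that fuses lipid droplets. Cidea read 4.08 and 5.47 in INT high, 3.99 and 4.00 in INT low, 7.81 and 9.86 in heavy C and 8.51 and 9.62 in heavy MF. All INT arrays lay below all heavy arrays, by -4.57 ± 0.32 log2 (adjusted p = 0.0009). As 3 of the 4 INT arrays were under the intensity of 20 used as the filter, the fold was taken with these at that intensity, which makes Cidea at least 20.3-fold lower in INT. The light C and MF mice had a mean of 5.51 ± 1.19 (SD, n = 4).

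Orm3 and Orm2 encode orosomucoids, acute phase proteins of plasma, and their near-identical family members may share probe signal. Orm3 read 6.96 and 7.15 in INT high, 5.43 and 5.37 in INT low, 8.34 and 9.55 in heavy C and 10.61 and 10.00 in heavy MF. The difference of -3.40 ± 0.56 log2 was 10.5-fold lower (adjusted p = 0.0187), and the heavy MF arrays were the highest of the 8. Orm2 read 8.66 and 9.37 in INT high, 8.41 and 7.21 in INT low, 10.15 and 10.04 in heavy C and 12.00 and 11.63 in heavy MF. It was 5.82-fold lower in INT (-2.54 ± 0.55, adjusted p = 0.0424), again with the heavy MF arrays highest. The call of Orm3 was lost without INT low mock (adjusted p = 0.0675), and that of Orm2 without heavy C mock, heavy MF mock, heavy MF Wy, INT high mock, INT low mock or INT low Wy (adjusted p 0.054 to 0.109).

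Cyp2b9, a cytochrome P450 normally high in female liver, was near one level in all heavy mice and spread widely in INT. Cyp2b9 read 9.58 and 9.86 in INT high, 8.47 and 6.45 in INT low, 11.95 and 11.93 in heavy C and 12.11 and 11.77 in heavy MF. The INT values spanned 6.45 to 9.86, and the difference was -3.35 ± 0.62 log2 (10.2-fold lower, adjusted p = 0.0277). Its call was lost without heavy C mock, heavy MF mock, heavy MF Wy, INT high mock or INT low mock (adjusted p 0.055 to 0.0836).

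Gpnmb, a glycoprotein of phagocytes that hold lipid, and Mmp12, the elastase of macrophages, had one pattern across the arrays. Gpnmb read 4.57 and 4.65 in INT high, 4.51 and 4.56 in INT low, 7.87 and 5.74 in heavy C and 7.79 and 6.19 in heavy MF. Mmp12 read 4.76 and 4.88 in INT high, 4.98 and 4.89 in INT low, 7.94 and 5.94 in heavy C and 7.99 and 6.66 in heavy MF. In both genes the INT arrays lay close together, while the heavy mock arrays were above the heavy Wy arrays. Gpnmb was 5-fold lower (-2.32 ± 0.34, adjusted p = 0.0128) and Mmp12 4.78-fold lower (-2.26 ± 0.32, adjusted p = 0.0115). Sprr1a, a precursor of the cornified envelope that injured epithelia also make, followed the same order. Sprr1a read 4.71 and 5.23 in INT high, 5.08 and 4.92 in INT low, 8.37 and 6.01 in heavy C and 8.20 and 6.62 in heavy MF. Its difference was -2.32 ± 0.39 log2 (4.98-fold lower, adjusted p = 0.0209), and the call was lost without heavy C mock, heavy MF mock, INT high mock or INT low mock (adjusted p 0.054 to 0.0727).

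Aqp7, a channel for water and glycerol, and Gprc5b, an orphan G protein-coupled receptor, were low in INT and highest in the heavy Wy arrays. Aqp7 read 4.01 and 4.69 in INT high, 3.80 and 4.42 in INT low, 5.46 and 7.97 in heavy C and 5.69 and 6.79 in heavy MF. Gprc5b read 4.77 and 5.18 in INT high, 4.87 and 4.70 in INT low, 6.49 and 8.10 in heavy C and 6.32 and 7.29 in heavy MF. Both were separate over all 8 arrays, with differences of -2.25 ± 0.29 (adjusted p = 0.00979) and -2.17 ± 0.26 log2 (adjusted p = 0.00843), and 2 INT arrays of Aqp7 were under the filter intensity. Themis, a signaling protein best known in developing T cells, read 7.14 to 7.78 in the heavy mice. Themis read 6.07 and 4.79 in INT high, 4.50 and 4.51 in INT low, 7.39 and 7.39 in heavy C and 7.78 and 7.14 in heavy MF. It was 5.5-fold lower (-2.46 ± 0.29, adjusted p = 0.00753). Of 12 T and NK cell markers on the array 8 passed the filter and were tested. Of these, 0 were called (4 at an unadjusted p under 0.05), and 7 estimates were below 0 (median -0.23). Their mean level was low, at 5.05 to 5.59 in the INT and 5.37 to 5.53 in the heavy arrays, which limits what they can show.

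Ly6d, a surface protein on a lipid anchor, and Tubb2a, a beta tubulin, overlapped between the groups over the 8 arrays, and their INT Wy arrays were above their INT mock arrays. Ly6d read 6.64 and 10.11 in INT high, 6.09 and 8.61 in INT low, 9.23 and 10.84 in heavy C and 10.42 and 10.45 in heavy MF. Tubb2a read 6.40 and 8.58 in INT high, 6.28 and 7.21 in INT low, 8.30 and 9.54 in heavy C and 9.29 and 10.30 in heavy MF. Within each treatment the groups did not overlap. The fitted differences were -2.37 ± 0.50 for Ly6d (adjusted p = 0.0395) and -2.24 ± 0.33 log2 for Tubb2a (adjusted p = 0.0126). Ly6d lost its call without heavy C mock, heavy MF mock, INT high mock, INT low mock or INT low Wy (adjusted p 0.079 to 0.106), and Tubb2a without INT low mock (adjusted p = 0.0513).

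**Figure D1:**
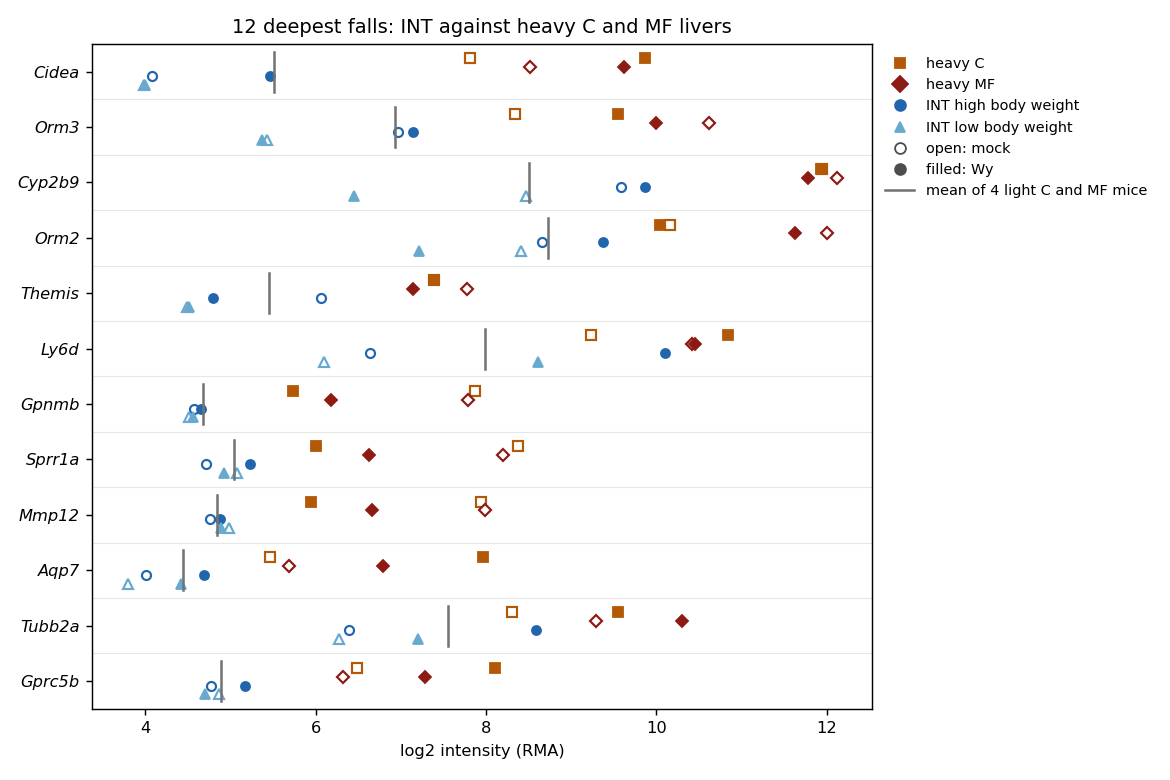
Log2 intensity on the 8 arrays for the 12 genes with the deepest falls in INT, with open symbols for mock and filled symbols for Wy, and a gray line for the mean of the 4 light C and MF mice. The blue INT symbols sit left of the heavy symbols except in Ly6d and Tubb2a, where they overlap, and those of Gpnmb, Sprr1a and Mmp12 bunch between 4.51 and 5.23 while the heavy symbols spread from 5.74 to 8.37.

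On the higher side, the genes named by the rule included a male-specific steroid enzyme, an adhesion receptor, a chemokine and a binding protein of insulin-like growth factors. Hsd3b5, a steroid reductase of male liver that responds to growth hormone, had the largest estimate. Hsd3b5 read 10.79 and 7.13 in INT high, 11.42 and 8.59 in INT low, 6.69 and 5.43 in heavy C and 3.54 and 4.05 in heavy MF. Its INT arrays all lay above its heavy arrays, but they spread from 7.13 to 11.42, with the mock arrays higher. The difference was 4.56 ± 0.80 log2 (adjusted p = 0.0247). Both heavy MF arrays were under the filter intensity, and with these set to it Hsd3b5 was at least 19.6-fold higher. The call was lost without INT high mock, INT low mock or INT low Wy (adjusted p 0.0604 to 0.0768).

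Adgrf1, an adhesion G protein-coupled receptor, lay near the filter intensity in heavy mice, with 1 array under it. Adgrf1 read 7.05 and 6.19 in INT high, 8.10 and 6.69 in INT low, 4.58 and 4.51 in heavy C and 4.79 and 4.15 in heavy MF. It was at least 5.49-fold higher in INT with that array at the filter intensity (2.50 ± 0.25, adjusted p = 0.00496) and was called without each array in turn. Cxcl13 encodes a chemokine that attracts B cells. Cxcl13 read 8.87 and 8.99 in INT high, 7.68 and 9.76 in INT low, 6.75 and 6.66 in heavy C and 6.66 and 7.30 in heavy MF. Its difference was 1.98 ± 0.30 log2 (3.95-fold higher, adjusted p = 0.0148), lost without INT high mock (adjusted p = 0.0517), and 0 of 7 B and plasma cell markers tested were called (0 at an unadjusted p under 0.05).

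Igfbp2, a plasma protein that binds insulin-like growth factors and falls in many states of obesity, was separate over all arrays. Igfbp2 read 10.61 and 10.70 in INT high, 11.06 and 11.17 in INT low, 9.44 and 9.88 in heavy C and 8.96 and 9.36 in heavy MF. It was 2.78-fold higher (1.47 ± 0.18, adjusted p = 0.00843). Cyp7b1, the oxysterol hydroxylase of the alternative bile acid pathway, is also male-biased. Cyp7b1 read 11.47 and 10.86 in INT high, 11.84 and 11.23 in INT low, 10.19 and 10.06 in heavy C and 9.40 and 9.95 in heavy MF. The heavy MF mock array was the lowest, and the difference was 1.44 ± 0.22 log2 (2.72-fold higher, adjusted p = 0.0144), lost without INT high mock (adjusted p = 0.0505).

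Susd4 regulates complement, and Slc22a7 carries organic anions into hepatocytes. Susd4 read 9.31 and 9.04 in INT high, 9.79 and 9.82 in INT low, 8.38 and 8.41 in heavy C and 7.35 and 8.31 in heavy MF. Slc22a7 read 8.87 and 7.92 in INT high, 7.98 and 7.46 in INT low, 7.41 and 6.83 in heavy C and 6.44 and 6.64 in heavy MF. Both were separate over the 8 arrays, at 1.38 ± 0.26 (adjusted p = 0.0288) and 1.23 ± 0.26 log2 (adjusted p = 0.0397). Susd4 lost its call without heavy MF Wy, INT high mock, INT low mock or INT low Wy (adjusted p 0.0527 to 0.0836), and Slc22a7 without heavy C mock, heavy MF mock, heavy MF Wy, INT high mock, INT high Wy, INT low mock or INT low Wy (adjusted p 0.0561 to 0.0833).

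Avpr1a, the vasopressin receptor of pericentral hepatocytes, and Hhip, an inhibitor of hedgehog ligands, kept their calls without each array in turn. Avpr1a read 7.39 and 6.63 in INT high, 8.18 and 6.64 in INT low, 6.31 and 5.72 in heavy C and 6.34 and 5.59 in heavy MF. Hhip read 6.88 and 6.11 in INT high, 6.74 and 6.63 in INT low, 5.46 and 5.50 in heavy C and 5.14 and 5.43 in heavy MF. Avpr1a was 2.32-fold higher (1.21 ± 0.17, adjusted p = 0.0107) and Hhip 2.31-fold higher (1.21 ± 0.16, adjusted p = 0.0104). Prok1, a secreted prokineticin, read 6.08 to 7.08 in INT and 4.92 to 5.40 in heavy mice (1.19 ± 0.18, adjusted p = 0.0128). Nup62cl read 5.89 to 6.82 in INT and 4.34 to 5.22 in heavy mice (1.74 ± 0.24, adjusted p = 0.0107), and both calls held without each array. Slc17a8, a vesicular glutamate transporter, read 8.02 to 8.91 in INT and 6.75 to 7.63 in heavy mice (1.16 ± 0.23, adjusted p = 0.0315), and its call was lost without heavy MF mock, INT high mock, INT low mock or INT low Wy (adjusted p 0.0714 to 0.0896).

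**Figure D2:**
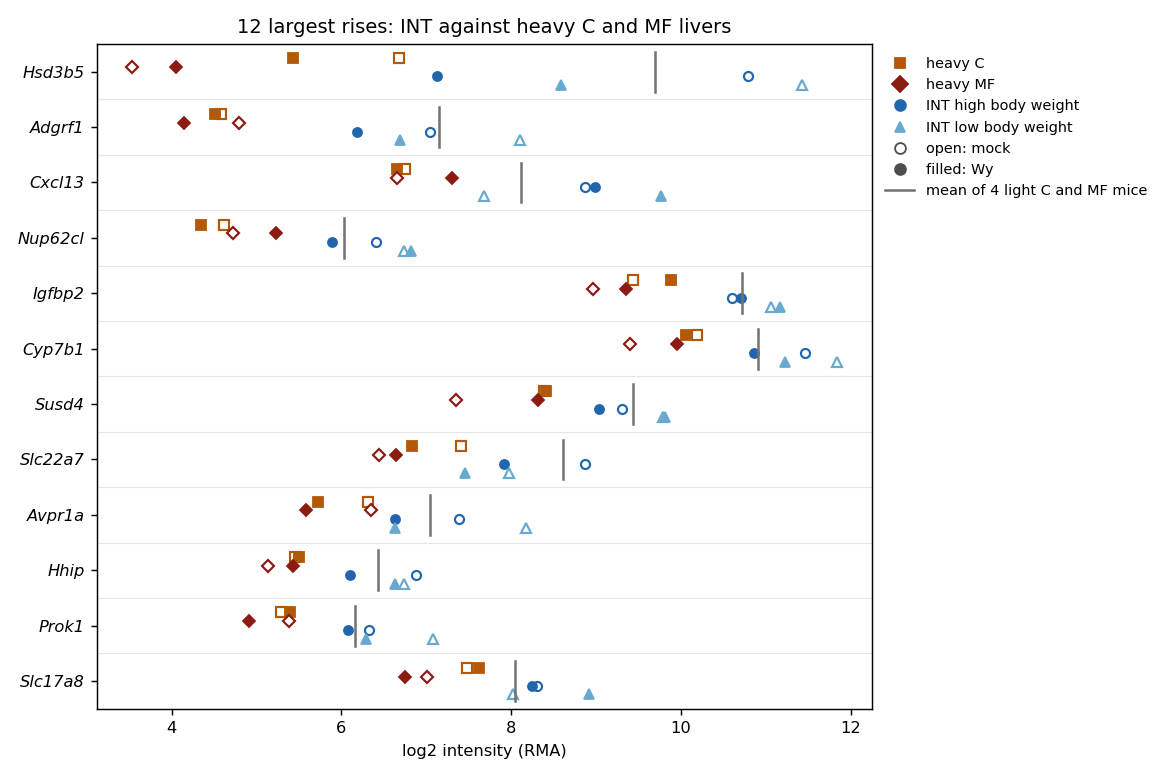
Log2 intensity on the 8 arrays for the 12 genes with the largest rises in INT, drawn as for the falls. All INT symbols lie right of all heavy symbols in each gene; the widest spread within a group is that of Hsd3b5, with INT from 7.13 to 11.42 and heavy from 3.54 to 6.69.

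The gene lists cover only part of the called genes. All called list members are among the 96 called genes named here, so most of the 590 called genes were in no list. The lists were written with earlier results of these data known. Lists are described by how many tested members were called beside the 1.44% higher and 2.7% lower over all genes, and by the median log2 difference of their members beside -0.0024 over all genes. Counts of members at an unadjusted p under 0.05 are to be read beside 3215 of all 14275 genes.

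Lipid droplet proteins fell in part. Of 18 tested, 5 were called lower and 0 higher, with a median of -0.31, and the mean level of the list was 8.26 to 9.40 in the INT and 9.26 to 9.98 in the heavy arrays, with overlap. Beyond Cidea, these were Mogat1, Plin4, Plin3 and Hsd17b13. Mogat1, an enzyme that builds diacylglycerol from monoacylglycerol, separated the groups without overlap. Mogat1 read 5.75 and 5.90 in INT high, 5.21 and 5.79 in INT low, 7.50 and 7.99 in heavy C and 7.45 and 7.51 in heavy MF. Its difference was -1.95 ± 0.14 log2 (3.86-fold lower, adjusted p = 0.0009). Plin4 and Plin3 are perilipins. Plin4 read 8.01 and 8.40 in INT high, 6.91 and 7.79 in INT low, 9.43 and 9.33 in heavy C and 9.59 and 9.61 in heavy MF. Plin4 was separate over the 8 arrays (-1.71 ± 0.25, adjusted p = 0.0131), whereas Plin3 overlapped, at 7.42 to 8.29 in INT and 8.27 to 9.25 in heavy mice (-0.90 ± 0.17, adjusted p = 0.0281). Hsd17b13, a droplet-bound dehydrogenase, had a difference of -0.40 ± 0.08 (adjusted p = 0.0356). Cidec, the sister protein of Cidea, was not called (-1.96 ± 0.54, adjusted p = 0.0785). Its INT Wy arrays read 11.21 and 10.53 beside 11.41 and 11.71 in the heavy Wy mice, and its INT mock arrays 8.33 and 6.68 beside 10.42 and 11.05. Of the 5 calls, those of Cidea, Mogat1 and Plin4 held without each array in turn. On the first array code 3 members were called lower, against the heavy C mice 2 and against the heavy MF mice 4.

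Fatty acid uptake went partly in opposite directions. Of 15 tested members 3 were called lower and 1 higher (median -0.12). Cd36, the main scavenger receptor for fatty acids, fell without overlap. Cd36 read 9.98 and 11.05 in INT high, 9.47 and 9.83 in INT low, 11.51 and 12.05 in heavy C and 11.67 and 12.01 in heavy MF. The difference was -1.73 ± 0.24 log2 (3.31-fold lower, adjusted p = 0.0107). Vldlr, a receptor for triglyceride-rich lipoproteins (-0.83 ± 0.10, adjusted p = 0.00744), and Slc27a4, a fatty acid transporter (-0.57 ± 0.13, adjusted p = 0.0431), were also lower. Fabp5, a fatty acid binding protein, was higher. Fabp5 read 8.59 and 10.03 in INT high, 9.73 and 9.95 in INT low, 8.09 and 8.94 in heavy C and 8.22 and 8.83 in heavy MF. Its INT range of 8.59 to 10.03 overlapped the heavy range of 8.09 to 8.94, and the difference was 1.06 ± 0.20 (adjusted p = 0.0295). The calls of Cd36 and Vldlr held without each array in turn, and that of Slc27a4 was lost without any 1 of the 8 arrays. Pparg, the lipid-storing relative of PPARα, was the 1 nuclear receptor of 16 tested that was called. Pparg read 8.44 and 7.87 in INT high, 8.71 and 7.73 in INT low, 9.53 and 8.55 in heavy C and 9.48 and 8.72 in heavy MF. It was lower by treatment without overlap, at -0.88 ± 0.08 log2 (adjusted p = 0.00387).

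Some genes of fat and sterol synthesis were called. Lipogenesis had 2 of 22 tested members called lower and 0 higher (median -0.24). Of the 22 estimates 20 were below 0, and 11 genes had an unadjusted p under 0.05 in limma. The genes called lower are given next. These were Pgd, an NADPH-making enzyme of the pentose phosphate pathway (-0.75 ± 0.08, adjusted p = 0.00596), and Fasn, the fatty acid synthase (-0.42 ± 0.09, adjusted p = 0.0417), whose call was lost without heavy C mock, heavy C Wy, heavy MF mock, heavy MF Wy, INT high Wy, INT low mock or INT low Wy (adjusted p 0.0737 to 0.11). Elovl6, which lengthens fatty acids, had -0.51 ± 0.12 (adjusted p = 0.0572). Triglyceride synthesis had Mogat1 and the phosphatidate phosphatase Lpin3 (-0.38 ± 0.07, adjusted p = 0.0285) called lower among 13. Cholesterol synthesis had 2 of 20 called higher and 0 lower (median 0.20), namely Stard4, a cytosolic sterol carrier (1.02 ± 0.18, adjusted p = 0.0229), and Insig1, which holds sterol regulators in the endoplasmic reticulum (0.62 ± 0.13, adjusted p = 0.0417). Of its 20 estimates 3 were below 0, and 7 genes had an unadjusted p under 0.05 in limma. Stard4 read 8.85 and 8.32 in INT high, 9.47 and 9.05 in INT low, 8.25 and 7.52 in heavy C and 8.12 and 7.73 in heavy MF. The low body weight INT mice were highest. Stard4 lost its call without heavy C mock, heavy MF mock or INT low mock (adjusted p 0.0547 to 0.0714) and Insig1 without heavy C mock, heavy C Wy, heavy MF mock, heavy MF Wy, INT high mock, INT low mock or INT low Wy (adjusted p 0.0529 to 0.116).

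PPARα itself and the genes of 3 lists of its targets were not called. Ppara read 11.26 to 11.53 in INT and 11.35 to 11.42 in heavy mice (-0.02 ± 0.08, adjusted p = 0.914). In those lists, 0 of 19 genes of mitochondrial oxidation and ketogenesis, 0 of 15 of peroxisomal oxidation and 0 of 21 others were called, with medians of 0.04, 0.08 and -0.14. At an unadjusted p under 0.05 these lists had 1, 2 and 5 genes. Other genes known as PPARα targets, such as Cd36 and Plin4, are counted in the lipid lists above. The smallest p of the first 2 lists belonged to Etfb, an electron carrier of oxidation (0.15 ± 0.06, adjusted p = 0.221), and Eci2, a peroxisomal isomerase (0.25 ± 0.07, adjusted p = 0.078). The lists of gluconeogenesis (20 tested), the circadian clock (17), heat shock (12) and the respiratory chain (27) also had 0 called by limma, with 3, 3, 4 and 1 at an unadjusted p under 0.05.

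Annexins, S100 proteins and related injury-linked genes formed the list with the most members called lower. Of 21 tested, 9 were called lower and 0 higher, all 21 estimates were below 0, and the median was -0.54. The mean level of the list was 7.37 to 7.75 in the INT and 8.15 to 8.47 in the heavy arrays, without overlap. Anxa2, an annexin that links membranes to actin, was separate over the 8 arrays. Anxa2 read 7.19 and 7.44 in INT high, 6.98 and 7.11 in INT low, 8.66 and 8.87 in heavy C and 9.11 and 9.00 in heavy MF. It was 3.32-fold lower (-1.73 ± 0.12, adjusted p = 0.0009). Lgals1 read 9.37 and 9.64 in INT high, 8.58 and 8.63 in INT low, 11.08 and 10.79 in heavy C and 11.01 and 10.78 in heavy MF. Lgals1, a secreted galectin, was 3.63-fold lower (-1.86 ± 0.23, adjusted p = 0.00953). S100a11 read 8.59 and 8.93 in INT high, 8.42 and 8.69 in INT low, 9.96 and 9.63 in heavy C and 10.50 and 9.95 in heavy MF. S100a11, a calcium sensor that binds annexins, was 2.55-fold lower (-1.35 ± 0.18, adjusted p = 0.0104). Anxa5, which binds exposed phosphatidylserine (-0.96 ± 0.08, adjusted p = 0.00271), and S100a10, the partner of Anxa2 (-0.57 ± 0.09, adjusted p = 0.0163), were lower too. The hepatocyte keratin Krt8 (-0.54 ± 0.10, adjusted p = 0.0292) and the galectin Lgals3 (-0.78 ± 0.17, adjusted p = 0.0445) made up the rest with Gpnmb and Ly6d. The calls of 5 of the 9 held without each array in turn, and 3 of the list were called on the first array code, 3 against heavy C and 9 against heavy MF.

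To see what letters lie ahead of these genes, the 250 bases before the transcription start were read from RefSeq (GRCm38.p6) for the 11287 tested genes with a window, and 5 short motifs were searched on both strands. The AP-1 motif TGANTCA was held by 34 of 308 genes lower in INT (11%), 7 of 156 higher genes (4.49%) and 669 of all 11287 (5.93%). The STAT5 motif TTCNNNGAA was held by 14 of the lower (4.55%), 14 of the higher (8.97%) and 824 of all (7.3%). The E-box CACGTG was held by 8.44% of the lower, 7.69% of the higher and 9.39% of all. The sterol motif TCACNCCAC was held by 2 lower and 3 higher genes and by 149 of all (1.32%), and the DR1 motif AGGTCANAGGTCA by 0 called genes and by 4 of all. No 2 of these motifs share their letters, though matches may overlap in a window. The windows of 4 genes that fell in INT are given 5′ to 3′ with the AP-1 letters in capitals. They were chosen, after the search, from the annexin and macrophage lists because they hold the motif. Anxa2, S100a11 and Trem2 had 1 window in the table and Mmp12 had 2, of which the one with the match is shown.
Anxa2 (chr9:69453433-69453682, plus strand): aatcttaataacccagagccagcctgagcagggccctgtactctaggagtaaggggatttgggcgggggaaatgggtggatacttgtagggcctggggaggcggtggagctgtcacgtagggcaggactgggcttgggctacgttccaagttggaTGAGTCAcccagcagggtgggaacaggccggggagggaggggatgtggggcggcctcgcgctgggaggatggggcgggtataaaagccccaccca
S100a11 (chr3:93520246-93520495, plus strand): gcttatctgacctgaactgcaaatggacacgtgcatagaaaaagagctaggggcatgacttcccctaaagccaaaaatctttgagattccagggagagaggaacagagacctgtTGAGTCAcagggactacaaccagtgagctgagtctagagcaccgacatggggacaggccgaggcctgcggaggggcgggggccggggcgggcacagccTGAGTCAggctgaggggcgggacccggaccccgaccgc
Mmp12 (chr9:7347124-7347373, plus strand): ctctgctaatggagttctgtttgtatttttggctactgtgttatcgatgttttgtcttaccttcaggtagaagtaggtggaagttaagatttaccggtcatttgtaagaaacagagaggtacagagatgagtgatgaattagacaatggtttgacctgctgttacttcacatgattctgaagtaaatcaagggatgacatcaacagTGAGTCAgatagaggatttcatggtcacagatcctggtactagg
Trem2 (chr17:48346151-48346400, plus strand): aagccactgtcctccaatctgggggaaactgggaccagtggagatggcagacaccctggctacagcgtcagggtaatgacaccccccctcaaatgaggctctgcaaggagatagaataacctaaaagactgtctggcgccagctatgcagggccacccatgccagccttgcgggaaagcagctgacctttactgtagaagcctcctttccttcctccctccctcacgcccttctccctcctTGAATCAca
The letters that match the searched motif begin 95 bases before the start of Anxa2, 136 before that of S100a11, which has a second match nearer the start, 44 before that of Mmp12 and 9 before that of Trem2. The N of the motif stands for any base, and the match of Trem2 reads TGAATCA, while those of the other genes shown read TGAGTCA. Of the fallen members with a window, 2 of 6 of the annexin list and 3 of 7 of the macrophage list held the searched motif. A match describes the letters in this window, not a bound site.

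Markers of monocyte-derived and lipid-associated macrophages fell in part, and those of resident Kupffer cells, the macrophages native to liver, gave 1 call. In the first list 8 of 15 tested were called lower and 1 higher (Fabp5), with a median of -0.79, and the mean level was 6.15 to 6.31 in the INT and 6.77 to 7.35 in the heavy arrays, without overlap. Of 14 Kupffer markers 0 were called lower and 1 higher (C6, also a complement gene), the median was -0.13, and the mean level of 8.81 to 9.34 in the INT and 8.68 to 9.15 in the heavy arrays overlapped. At an unadjusted p under 0.05 there were 8 Kupffer markers, in both directions. Among them were C1qb, a chain of complement C1q (-0.52 ± 0.13, adjusted p = 0.0663), and Cd163, a scavenger receptor for hemoglobin (0.67 ± 0.18, adjusted p = 0.0759). The Kupffer median was -0.26 against the heavy C mice and 0.04 against the heavy MF mice, with 0 called in each. Clec4f, a lectin particular to Kupffer cells, read 9.64 to 9.86 in INT and 9.23 to 10.03 in heavy mice. No member of either list was at the floor in all arrays.

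Beside Gpnmb and Mmp12, the fallen macrophage genes were Itgax, Ccr2, Trem2, Atp6v0d2, Clec7a and Lgals3. Itgax, the integrin CD11c, was separate over the 8 arrays. Itgax read 5.17 and 4.73 in INT high, 4.75 and 4.90 in INT low, 6.22 and 5.81 in heavy C and 6.44 and 5.52 in heavy MF. Its difference was -1.11 ± 0.14 log2 (adjusted p = 0.00979). Trem2, the lipid receptor of such macrophages, read 5.88 to 6.25 in INT and 6.56 to 7.23 in heavy mice (-0.79 ± 0.13, adjusted p = 0.0182), and its call was lost without heavy C mock, heavy MF mock or INT low mock (adjusted p 0.0551 to 0.0664). Ccr2, the receptor that draws monocytes into tissue, read 4.53 to 4.99 in INT and 5.58 to 6.06 in heavy mice (-0.99 ± 0.13, adjusted p = 0.00997). Atp6v0d2, a proton pump subunit, read 4.82 to 6.41 in INT and 5.86 to 7.18 in heavy mice (-1.15 ± 0.20, adjusted p = 0.0215), so these overlapped. Clec7a, the beta-glucan receptor, had a difference of -1.05 ± 0.21 (adjusted p = 0.0336), lost without heavy C mock, heavy C Wy, heavy MF mock, INT high mock, INT high Wy, INT low mock or INT low Wy (adjusted p 0.0557 to 0.0955). The calls of Itgax, Ccr2, Mmp12 and Gpnmb held without each array in turn, and on the first array code 2 of the list were called lower and 1 higher.

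Antigen presentation genes were lower in part. Of 6 tested members of the MHC class II list 3 were called lower and 0 higher (median -0.95). H2-Aa read 10.15 and 9.15 in INT high, 9.59 and 9.68 in INT low, 10.64 and 10.96 in heavy C and 10.68 and 10.24 in heavy MF. H2-Eb1 read 9.76 and 8.59 in INT high, 9.34 and 9.14 in INT low, 10.22 and 10.66 in heavy C and 10.34 and 9.82 in heavy MF. H2-Aa and H2-Eb1, chains that show peptides to T cells, were at -0.99 ± 0.20 (adjusted p = 0.0336) and -1.05 ± 0.22 log2 (adjusted p = 0.0392). H2-DMa, which loads the peptides, was at -0.94 ± 0.21 (adjusted p = 0.0465). All 6 estimates of the list were below 0, and all 6 genes had an unadjusted p under 0.05 in limma. The calls of H2-Aa, H2-Eb1 and H2-DMa were each lost without several of the 8 arrays in turn, while their estimates stayed at -1.20 to -0.73. H2-Aa lost its call without heavy C mock, heavy MF mock, INT high Wy, INT low mock or INT low Wy (adjusted p 0.0638 to 0.0967), H2-Eb1 without heavy C mock, heavy MF mock, heavy MF Wy, INT high mock, INT high Wy, INT low mock or INT low Wy (adjusted p 0.0503 to 0.102) and H2-DMa without heavy C mock, heavy MF mock, INT high mock, INT high Wy, INT low mock or INT low Wy (adjusted p 0.0561 to 0.123). On the first array code 0 of the 6 were called, at a median of -0.90.

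Chemokines and cytokines had 4 lower and 2 higher of 21 tested (median -0.31). The lower were Ccr2, Ccl6, Ccl5 and Cxcl14, and the higher Cxcl13 and Cxcl12. Ccl6, a chemokine of myeloid cells, read 7.61 to 8.24 in INT and 8.78 to 9.21 in heavy mice (-1.11 ± 0.15, adjusted p = 0.0104). Ccl5, a chemokine for T cells, was at -1.12 ± 0.25 (adjusted p = 0.0456), lost without any 1 of the 8 arrays. Cxcl14, a chemokine made by many epithelia, was at -0.36 ± 0.08 (adjusted p = 0.047), also lost without any 1 of the 8. Cxcl12, which retains blood cells in tissue, was at 0.48 ± 0.10 (adjusted p = 0.0394), lost without 6 of the 8 in turn. Among neutrophil markers 1 of 6 tested was called, Csf3r, the receptor for granulocyte growth factor (-0.34 ± 0.08, adjusted p = 0.0452), and this call too was lost without any 1 of the 8 arrays. The 21 interferon-induced genes had 20 estimates below 0 (median -0.35), 0 called and 9 at an unadjusted p under 0.05.

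Matrix and growth genes were lower in part. Of 31 tested members of the extracellular matrix list 6 were called lower and 0 higher (median -0.32), and 9 were called lower against the heavy MF mice alone, 1 against the heavy C mice alone (median -0.17) and 1 on the first array code. Timp1, the inhibitor of matrix proteases that rises in fibrosis, kept its call without each array. Timp1 read 4.26 and 4.30 in INT high, 4.47 and 4.21 in INT low, 5.26 and 5.22 in heavy C and 5.68 and 5.24 in heavy MF. It was at -1.04 ± 0.10 log2 (adjusted p = 0.00405), at least 1.99-fold lower with the 3 INT arrays under the filter intensity set to it. Col1a1, fibrillar collagen (-0.59 ± 0.11, adjusted p = 0.0289), Vim, an intermediate filament (-0.49 ± 0.08, adjusted p = 0.0173), Thbs1, an activator of TGF-beta (-0.51 ± 0.11, adjusted p = 0.0378), and Loxl2, which crosslinks collagen (-0.53 ± 0.12, adjusted p = 0.0452), were the others with Mmp12. Stellate cell markers, the usual collagen makers, had 0 of 13 called (median -0.12, 4 at an unadjusted p under 0.05). The cell cycle list had 5 of 16 called lower and 0 higher (median -0.43). Mki67, the proliferation antigen, read 5.20 to 5.62 in INT and 5.83 to 6.78 in heavy mice (-0.85 ± 0.16, adjusted p = 0.0288). The cyclins Ccna2 (-0.80 ± 0.15, adjusted p = 0.0285) and Ccnb2 (-0.81 ± 0.18, adjusted p = 0.0424), the topoisomerase Top2a (-0.60 ± 0.09, adjusted p = 0.0142) and the replication helicase subunit Mcm2 (-0.47 ± 0.08, adjusted p = 0.0187) were the rest, and only Top2a among these 5 held without each array. The p53 targets Ccng1 (-0.43 ± 0.07, adjusted p = 0.0171) and Phlda3 (-0.54 ± 0.09, adjusted p = 0.0185) were lower among 15 tested.

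Some genes of the oxidant response fell. The list of NRF2 targets and glutathione genes had 4 of 17 called lower and 0 higher (median -0.27), with a mean level of 9.56 to 9.69 in the INT and 9.91 to 10.01 in the heavy arrays, without overlap. Nqo1, a quinone reductase and the usual reporter of NRF2, was separate over the 8 arrays. Nqo1 read 6.17 and 5.79 in INT high, 6.24 and 5.74 in INT low, 7.04 and 6.93 in heavy C and 7.32 and 6.84 in heavy MF. Its difference was -1.05 ± 0.08 log2 (2.07-fold lower, adjusted p = 0.00155), and the call held without each array in turn. The glutathione transferases Gstm3 (-0.82 ± 0.14, adjusted p = 0.0245) and Gstm4 (-0.39 ± 0.06, adjusted p = 0.02), close paralogs that may share probe signal, and Srxn1, which repairs peroxiredoxins (-0.55 ± 0.11, adjusted p = 0.036), were the others. Srxn1 lost its call without any 1 of the 8 arrays, and 1 member of the list was called lower against the heavy C mice alone and 1 on the first array code. The stress factor Atf3 was lower (-0.95 ± 0.21, adjusted p = 0.0442), the 1 gene called of 19 of the endoplasmic reticulum and integrated stress response. Of the CAR and PXR targets, Gstm3 and the bile salt exporter Abcc3 (-0.53 ± 0.11, adjusted p = 0.0417) were lower and the carboxylesterase Ces2a (0.75 ± 0.16, adjusted p = 0.0393) was higher, among 16.

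Sex-biased liver genes moved in part, in 2 directions. Of 23 male-biased genes tested 6 were called higher and 0 lower (median 0.38), and of 17 female-biased genes 4 were called lower and 0 higher (median -0.43). The mean level of the male-biased list was 10.39 to 10.92 in the INT and 9.42 to 10.29 in the heavy arrays, and that of the female-biased list 6.78 to 7.30 in the INT and 7.63 to 8.11 in the heavy arrays, neither with overlap. Beside Hsd3b5, Cyp7b1 and Susd4, the male-biased calls were Serpina4-ps1, C6 and Mup21. Serpina4-ps1 is annotated as a pseudogene of a protease inhibitor. Serpina4-ps1 read 10.36 and 11.53 in INT high, 10.62 and 11.80 in INT low, 9.56 and 6.37 in heavy C and 6.33 and 6.90 in heavy MF. The difference was 3.79 ± 0.70 log2 (adjusted p = 0.0273), with the heavy C mock array nearest to INT, and the call was lost without heavy MF mock, heavy MF Wy, INT high mock, INT high Wy, INT low mock or INT low Wy (adjusted p 0.0561 to 0.0741). Mup21, a major urinary protein of a family with near-identical members, was at 0.69 ± 0.15 (adjusted p = 0.0442). The female-biased calls were Cyp2b9, Cd36, Atp6v0d2 and the organic anion transporter Slc22a27. Slc22a27 read 6.20 and 6.77 in INT high, 6.50 and 6.06 in INT low, 7.44 and 7.35 in heavy C and 8.15 and 7.93 in heavy MF. Slc22a27 was at -1.34 ± 0.21 log2 (adjusted p = 0.0171), lost without INT high mock or INT low mock (adjusted p 0.0559 to 0.0561). None of the 6 male-biased calls held without each array in turn, and on the first array code 0 of them were called, at a list median of 0.45. Against the heavy MF mice 7 male-biased genes were called higher, and against the heavy C mice 3.

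Plasma proteins of hepatocytes moved in both directions. Complement and coagulation had 4 of 28 called higher and 0 lower (median 0.11). They were C8b and C8a, chains of the membrane attack complex, C6, another of its parts, and the clotting factor F7. C8b read 11.78 and 11.43 in INT high, 11.94 and 11.87 in INT low, 11.04 and 10.81 in heavy C and 10.38 and 10.52 in heavy MF. C8b was 2.09-fold higher (1.06 ± 0.16, adjusted p = 0.0134), separate over the 8 arrays and lost without INT low mock (adjusted p = 0.0544). C8a (0.42 ± 0.09, adjusted p = 0.0396), C6 (0.81 ± 0.17, adjusted p = 0.0356) and F7 (0.51 ± 0.10, adjusted p = 0.0288) followed. Their calls were lost without 7, 7 and 6 of the 8 arrays in turn. Of this list 0 were called against the heavy C mice alone, 2 higher against the heavy MF mice alone and 0 on the first array code. Acute phase genes had 2 of 23 called lower, Orm3 and Orm2, and 20 of the 23 estimates were below 0 (median -0.33). Against the heavy C mice alone 0 were called and the median was 0.0058, and against the heavy MF mice alone 3 were called lower at a median of -0.46. Of the secreted hormones and their binding proteins, Igfbp2, Igfals, which carries insulin-like growth factors in plasma (0.83 ± 0.16, adjusted p = 0.0295), and the activin subunit Inhba (0.76 ± 0.15, adjusted p = 0.0336) were called higher among 26, and 0 lower. Apom, a carrier of sphingosine phosphate, was higher (0.57 ± 0.10, adjusted p = 0.0247) and Apoa4, an apolipoprotein of lipid transport, lower (-0.39 ± 0.08, adjusted p = 0.0392), among 17 lipoprotein genes. Of the bile acid genes, Cyp7b1 was higher, and the transporters Slco1a4 (-1.16 ± 0.19, adjusted p = 0.018) and Abcc3 were lower, among 24.

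Some hepatocyte genes of the pericentral and periportal zones were called. Pericentral genes had 3 of 19 called higher, Avpr1a, Tbx3, a Wnt-dependent transcription factor (0.57 ± 0.10, adjusted p = 0.0215), and Notum, a secreted Wnt inhibitor (0.80 ± 0.16, adjusted p = 0.0336), and 1 lower, the ammonium transporter Rhbg (-1.17 ± 0.18, adjusted p = 0.0143). Periportal genes had 2 of 15 called lower, Hsd17b13 and the aldehyde dehydrogenase Aldh1b1, and 0 higher. Aldh1b1 read 7.93 and 6.92 in INT high, 7.23 and 6.86 in INT low, 8.56 and 8.20 in heavy C and 8.66 and 8.29 in heavy MF. Aldh1b1 was at -1.19 ± 0.14 log2 (adjusted p = 0.00843), and this call held without each array in turn. Glycogen genes had 3 of 14 called lower, namely the primer Gyg (-0.54 ± 0.07, adjusted p = 0.00997), the branching enzyme Gbe1 (-0.48 ± 0.09, adjusted p = 0.03) and the phosphoglucomutase Pgm2 (-0.54 ± 0.12, adjusted p = 0.0403). The lists of endothelial (12 tested), cholangiocyte (5), erythroid (2), adipocyte (6), pancreas (3) and muscle markers (4) had 0 called, with 3, 0, 1, 1, 0 and 0 at an unadjusted p under 0.05.

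**Figure D3:**
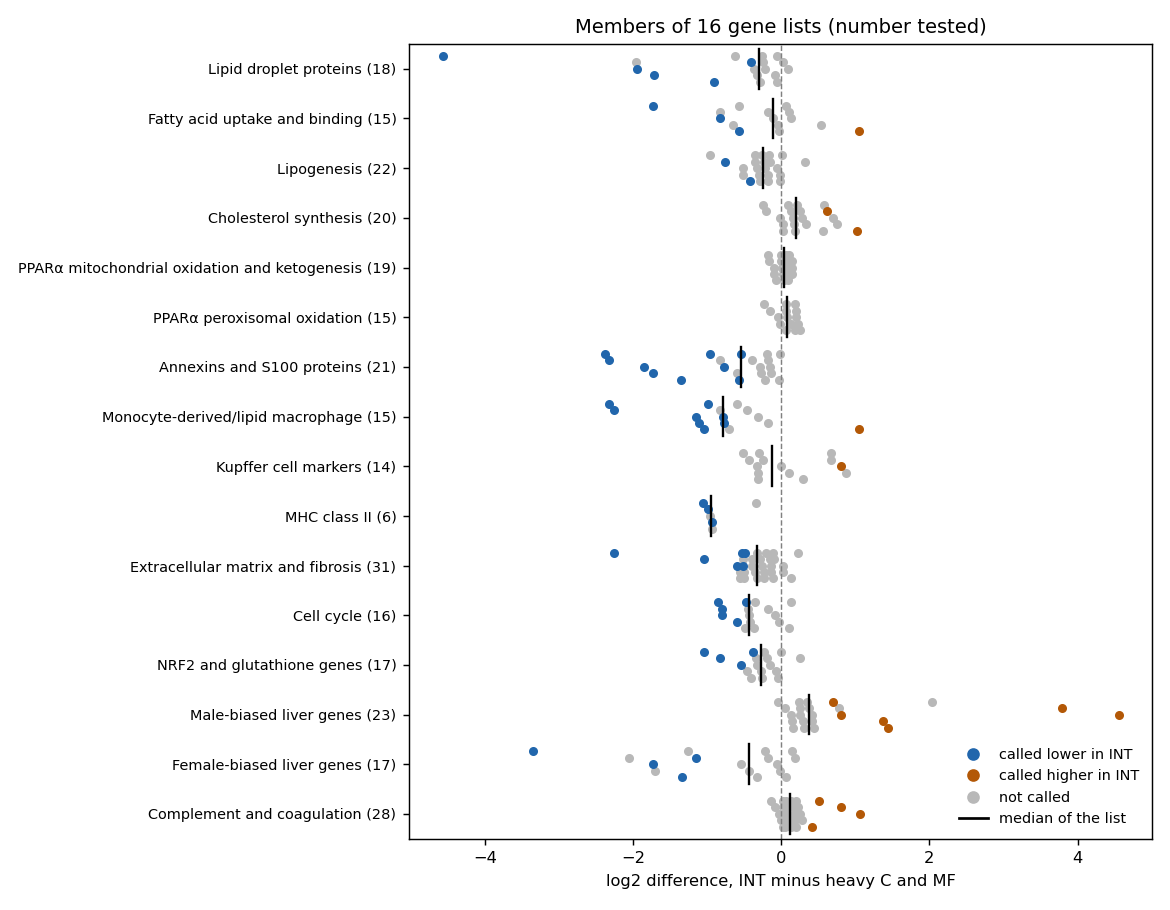
Log2 difference between INT and heavy livers for each tested member of 16 gene lists (number tested in brackets), with called members in color, others in gray and the median of each list as a black bar. The macrophage, MHC class II and annexin lists lie mostly left of 0, at medians of -0.79, -0.95 and -0.54, while the 2 PPARα target lists drawn stay close to 0. The list of other PPARα targets, with a median of -0.14, is not drawn.

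The study followed 12 genes in 3 panels by PCR in mock-treated mice. It reported no statistical difference of INT from the other diet groups. The same genes are given here from the arrays, which is a different set of mice. Both treatments are pooled, and the C and MF mice are of the high body weight class only. Of 4 lipid droplet genes Cidea and Mogat1 were called lower, and Cidec and Fgf21 were not. Fgf21, a fasting hormone of liver, read 5.55 and 8.16 in INT high, 6.65 and 7.19 in INT low, 5.88 and 7.85 in heavy C and 6.36 and 8.06 in heavy MF (-0.15 ± 0.27, adjusted p = 0.79). Of 4 genes of inflammation and fibrosis Timp1 was called lower, whereas the acute phase genes Lcn2 (-2.45 ± 0.86, adjusted p = 0.142) and Saa2 (-2.28 ± 1.04, adjusted p = 0.236) and the metallothionein Mt2 (-0.84 ± 0.55, adjusted p = 0.401) were not. Lcn2 read 9.51 and 12.24 in INT high, 8.40 and 8.41 in INT low, 11.49 and 10.81 in heavy C and 13.02 and 13.04 in heavy MF. The INT high Wy array of Lcn2 was above both heavy C arrays. Of 4 macrophage genes, Cd68 (-0.71 ± 0.17, adjusted p = 0.0572), Ccl3 (-0.78 ± 0.23, adjusted p = 0.0955), Ccl2 (-0.31 ± 0.11, adjusted p = 0.157) and Adgre1 (-0.24 ± 0.23, adjusted p = 0.583), 0 were called, 3 had an unadjusted p under 0.05, and all 4 estimates were below 0.

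Mock and Wy arrays gave the same direction in all 96 called genes plotted. This was nearly fixed by their choice, as they were called over both treatments and the ranked ones had to have INT and heavy arrays apart within each. In 65 of the 96 the difference was larger in size among the mock arrays. Hsd3b5 was higher in INT by 5.99 ± 0.96 log2 among mock and by 3.12 ± 0.96 among Wy arrays, and Serpina4-ps1 by 2.55 ± 0.84 and 5.03 ± 0.84. Gpnmb was lower by -3.29 ± 0.15 among mock and -1.35 ± 0.15 among Wy arrays. Fitted within mock arrays with the spread of all 8, 95 genes were called (22 higher, 73 lower), and within Wy arrays 26 (4 higher, 22 lower), with 2 arrays a group in each. These counts do not show that the difference depends on treatment, which was tested directly.

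**Figure D4:**
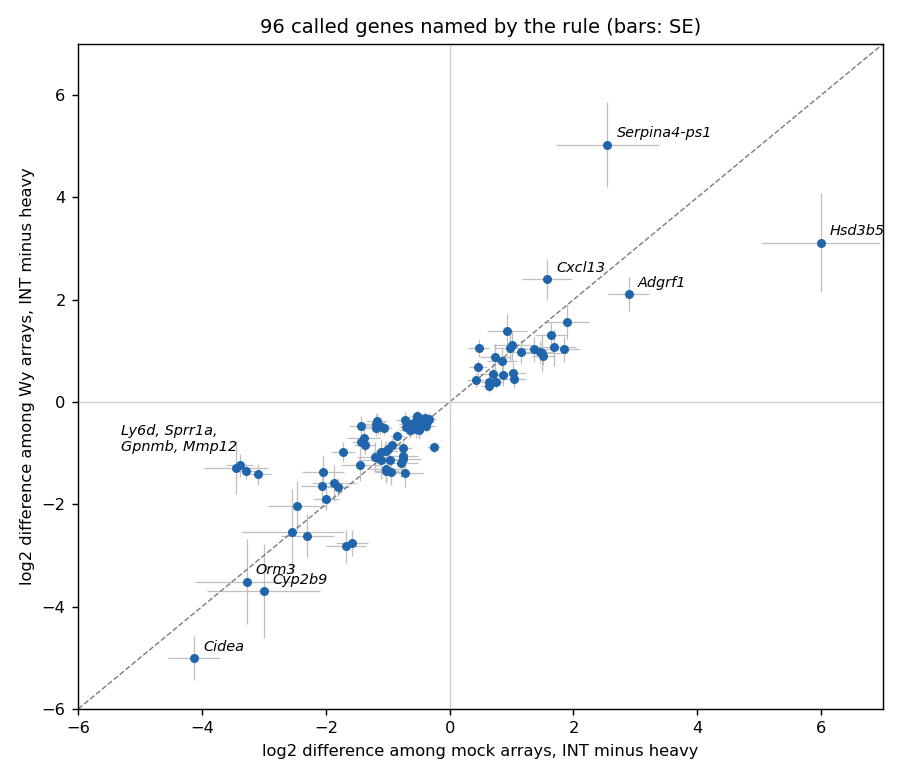
Log2 difference between INT and heavy livers among Wy arrays (vertical) against that among mock arrays (horizontal) for 96 called genes, with SE bars and a dashed line where both are equal. Every gene lies below 0 on both axes or above 0 on both; Hsd3b5 (5.99 and 3.12) lies farthest below the line and Serpina4-ps1 (2.55 and 5.03) farthest above it.

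The effect of Wy was compared between INT and heavy mice as an interaction. Of all genes 1 was called (0.00701%) and 562 had an unadjusted p under 0.05, by limma. It was Cpne5, a copine that binds membranes with calcium. Cpne5 read 4.26 and 8.68 in INT high, 4.34 and 8.94 in INT low, 4.45 and 6.58 in heavy C and 4.46 and 6.14 in heavy MF. Wy arrays exceeded mock arrays by 4.51 ± 0.16 log2 in INT and by 1.91 ± 0.16 in heavy mice, and the difference was 2.60 ± 0.22 (adjusted p = 0.0429). The call was lost with the spread of all 16 arrays (adjusted p = 0.573) and without any 1 of the 4 INT arrays or the 2 heavy mock arrays (adjusted p 0.0689 to 0.597).

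Of the next genes by p, none passed. Myc, a growth-promoting transcription factor, was higher in Wy than mock arrays by 3.65 log2 in INT and 0.91 in heavy mice (difference 2.74 ± 0.39, adjusted p = 0.379). Myc read 6.57 and 10.09 in INT high, 6.71 and 10.49 in INT low, 8.12 and 8.48 in heavy C and 7.18 and 8.64 in heavy MF. Cish, an inhibitor of cytokine signaling, differed by 3.16 ± 0.44 (adjusted p = 0.379). Cish read 6.13 and 8.67 in INT high, 6.58 and 8.81 in INT low, 8.50 and 6.98 in heavy C and 7.77 and 7.76 in heavy MF. For Myc and Cish the INT mock arrays lay below both heavy mock arrays, and the INT Wy arrays above both heavy Wy arrays. Gpnmb (1.94 ± 0.21) and Sprr1a (2.15 ± 0.31) also had positive differences (adjusted p = 0.12 and 0.379). Their Wy minus mock differences were 0.07 and 0.18 in INT and -1.87 and -1.97 in heavy mice.

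Within the heavy mice, MF and C were compared to see whether the 2 diets formed 1 group. Of all genes 3 were called (0.021%), all higher in MF, and 1426 had an unadjusted p under 0.05. Tifa, an adaptor of NF-kappaB signaling, differed by 2.33 ± 0.17 log2 (adjusted p = 0.00533). Tifa read 7.37 and 7.00 in INT high, 7.46 and 6.70 in INT low, 7.18 and 6.24 in heavy C and 9.62 and 8.46 in heavy MF. Zc3h13, a part of the RNA methylation complex (1.95 ± 0.15, adjusted p = 0.00533), and Igfbp1, a binding protein of insulin-like growth factors that insulin lowers (1.47 ± 0.15, adjusted p = 0.0371), followed. The call of Tifa held without each array in turn, that of Zc3h13 was lost without heavy MF Wy (adjusted p = 0.0575), and that of Igfbp1 was lost without any 1 of the 4 heavy or the 2 INT low arrays (adjusted p 0.08 to 0.267). Igfbp1 read 9.32 and 10.19 in INT high, 9.62 and 10.07 in INT low, 9.81 and 10.01 in heavy C and 11.19 and 11.57 in heavy MF. The INT arrays of Igfbp1 spanned the heavy C values and lay below heavy MF. The ephrin Efna1 (1.46 ± 0.16, adjusted p = 0.0531) and the glutathione-degrading enzyme Chac1 (2.06 ± 0.24, adjusted p = 0.0531) were next. With 1 mouse per diet and treatment this comparison was small, and without the INT high Wy array, which enters only through the shared spread, 31 genes were called.

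**Figure D5:**
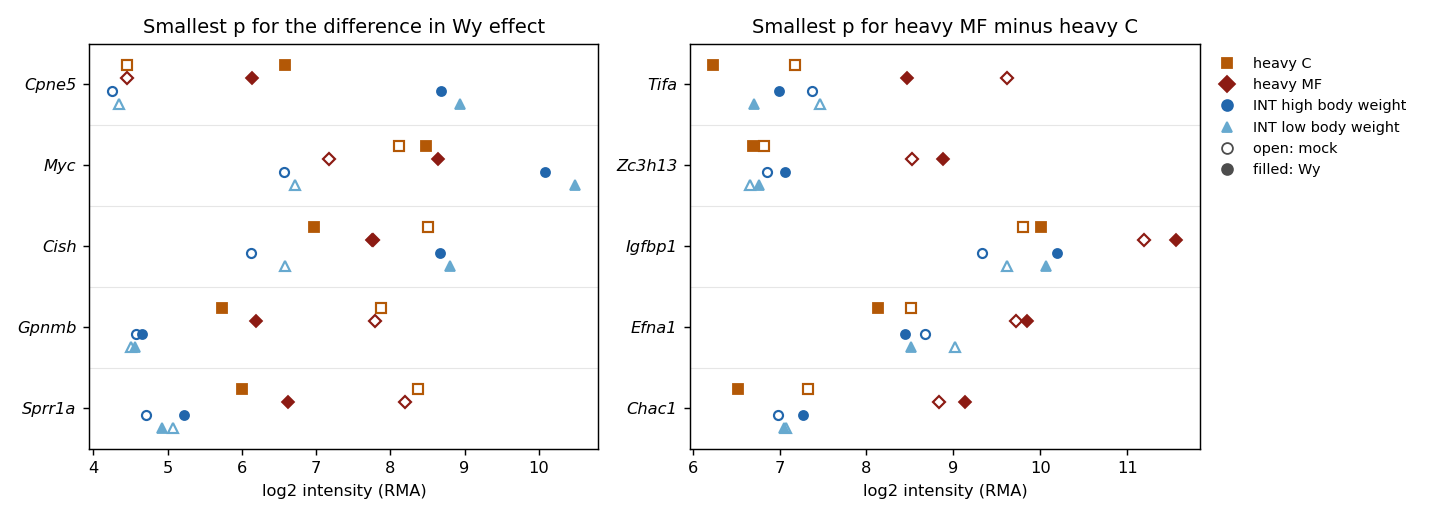
Log2 intensity on the 8 arrays for the 5 genes of smallest p in the comparison of Wy effects (left) and in that of heavy MF with heavy C mice (right). Filled INT symbols of Cpne5 at 8.68 and 8.94 stand right of the heavy ones at 6.14 and 6.58, and the heavy MF symbols of Tifa at 8.46 and 9.62 stand right of all others.

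The light C and MF mice, low body weight mice on the same freely fed diets, gave a reference for the INT values. With light in place of heavy mice, 0 of 14275 genes were called by limma (0%), and 689 had an unadjusted p under 0.05, which does not show that the groups were alike. Cidea, the gene with the deepest fall, differed from the light mice by -1.12 ± 0.33 log2 (adjusted p = 0.953), Hsd3b5 by -0.21 ± 0.40, Gpnmb by -0.11 ± 0.09 and Anxa2 by -0.03 ± 0.09. Both comparisons used the same INT arrays. Mean levels of the annexin list were 7.31 to 7.70 in the light mice and 7.37 to 7.75 in INT. The macrophage list lay at 6.09 to 6.32 in the light mice and 6.15 to 6.31 in INT, and the male-biased list at 10.44 to 10.95 and 10.39 to 10.92. Not every called gene had this pattern. Atp6v0d2 had means of 5.35 in INT, 6.47 in light and 6.49 in heavy mice, and Fasn 11.11, 11.47 and 11.53. The lipogenesis list lay at 10.52 to 10.82 in INT, 10.74 to 11.19 in light and 10.90 to 11.05 in heavy mice.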

How the data were processed

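Liver RNA from 16 mice was hybridized to Affymetrix Mouse Gene 1.1 ST arrays, 1 array per mouse. The deposited values are log2 intensities that the authors made by robust multi-array averaging, which corrects background, equalizes the distributions of the arrays and summarizes probes per transcript cluster. The sources used here do not give its software version. Precision is limited by having 1 array per mouse. Of 35556 transcript clusters, 21218 had 1 gene in the platform annotation, 1881 had several and 12457 were not listed. For genes with several clusters the one of highest mean was kept, which gave 18820 genes, and 14275 with an intensity over 20 (log2 4.32) on at least 5 arrays were tested.

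Groups were taken from the sample labels. Genes were fitted with limma 3.58.1 in R 4.3.3 over the 8 arrays with group and treatment as terms (5 residual degrees of freedom), with an added interaction for the Wy effect and with 3 groups for MF against C. P-values were adjusted by Benjamini-Hochberg over all tested genes, with calls under 0.05. They measure the spread between single mice. For INT against heavy mice this spread also holds the difference between C and MF, and that between the body weight classes and array codes of INT. The comparison with light mice was added after the data were seen. The fit was tested on simulated data. Alternatives were the arrays behind the spread, the body weight pair as a block, centering, moderation, filters, several clusters per gene, array code, diet, treatment and each array left out.

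The members, the 50 gene lists (804 genes, 678 tested) and the tests were chosen with earlier results of these data known. Named genes are the 12 largest rises and 12 deepest falls among called genes with INT and heavy arrays apart within each treatment (predicted genes, pseudogenes and olfactory receptors skipped), the panel genes, Ppara, called members and those of smallest p of the lists, and the 5 smallest p of the other comparisons. Clec4f was named as the defining Kupffer marker, and C1qb and Cd163 after their values were seen. Motifs were searched with Python 3.11.15. Promoter windows are those of RefSeq; the sources used here do not give the build of the array annotation, so no gene coordinates are given.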

Additional observations from a re-analysis of the deposited data

Results flagged for a closer look

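Of 212 groups of 4 arrays tested, 1 gene and 1 group at a time with the treatment effect subtracted, 8 had an array far from the other 3. Chance flags about 1 in 20 such groups. The gap of that array to its nearest neighbor, as a share of the range of the group, was 0.889 for Apom (heavy C mock, highest), 0.87 for Ces2a (heavy MF mock, lowest), 0.872 for Cyp7b1 (heavy MF mock, lowest), 0.837 for Slco1a4 (heavy MF mock, lowest) and 0.838 for Inhba (heavy MF Wy, lowest). Among the INT arrays it was 0.914 for Hsd17b13 (INT high Wy, highest), 0.9 for Top2a (INT low mock, lowest) and 0.904 for Vim (INT low mock, lowest). For Cyp7b1 that array lay 0.747 log2 from the nearest heavy array, and for Vim 0.137 log2 from the nearest INT array.

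The Wy effect of Cpne5 differed between INT and heavy mice by 2.60 log2 in the interaction test of limma, with 2 mice of each diet group per treatment.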

How the results depend on the processing

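The counts of 205 higher and 385 lower genes moved most with the mice behind them. They were 587 and 783 with the spread of all 16 arrays, 28 and 52 on the first array code, 3 and 8 with the INT mice of high body weight alone, 13 and 71 against heavy C alone, 18 and 77 on mock arrays alone, 1 and 1 on Wy arrays alone, 22 and 73 within mock arrays and 4 and 22 within Wy arrays with the spread of the 8 arrays. These sets hold fewer or other arrays. Leaving out each array in turn gave 33 to 217 higher and 103 to 360 lower genes, and a lone mouse of a diet and treatment is then assumed to vary like the others. Centering, moderation with trend and robust, filters, several clusters per gene and heavy MF alone stayed within 1.5 times. Of the 590 calls 552 were shared with all 16 arrays and 284 with heavy MF alone.

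The mock and Wy mice of a body weight pair are separate mice that share a diet and a class. The INT high pair also shares the second array code. Deviations of the mock and Wy mice of a pair correlated at 0.431 in C and MF and 0.0840 in INT, so the pairs were not taken as shown. In the heavy mice each pair is also a diet, so the pair cannot be told apart from the difference between C and MF. With the replicate block as a random term (consensus correlation 0.0937) 118 genes were higher and 275 lower, all among the 590, and 23 of the 96 called genes named lost their call. With the pair as a fixed block 2 genes were called for the Wy effect.

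The 1 call of the Wy effect ranged from 0 to 3 without each array, and the 3 calls of MF against C from 2 to 31, with 24 on the 4 heavy arrays. Of the 96 called genes named, 30 kept their call without each array in turn. Between 13 (without heavy C Wy) and 60 (without INT low mock) lost it. Among genes that were not called, Ppara turned to above 0 with INT of high body weight alone (0.0070), on mock arrays (0.055), within mock arrays (0.055) and without single arrays (-0.079 to 0.019), Fgf21 against heavy C (0.022) and without INT high mock (0.044) or INT low Wy (0.069, the top of a range from -0.39), and Adgre1 against heavy MF (0.026), on Wy arrays (0.023) and within Wy arrays (0.023). The cause was not tested. Signal near the filter intensity limits the low genes, among them Cidea, Aqp7 and Timp1 in INT and Hsd3b5 in heavy MF mice.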
